A study of Mus musculus with 6 samples.

Results

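Type I interferon-stimulated genes are the genes whose transcription is switched on by interferon alpha and beta. The set described here holds 38 named genes, chosen by symbol as effectors, sensors and regulators of that response, and 36 of them were analysed among the 21700 genes of the table. Mx1 and Mx2 were not analysed here. Of the 36 genes, 32 had a mean of at least 1 FPKM (fragments scaled to exon length and library size by the authors) over all libraries and were tested, among 11412 genes tested in all. Levels were measured by RNA-seq in biliary epithelial cells, which line the bile ducts, sorted from liver of wild-type C57BL/6 females. Of the 6 libraries, 3 were of non-pregnant females and 3 of pregnant females at dpc8, 8 days post coitum. The antibodies of the sort were not named in the sources used. Whether the libraries of a group are of different animals is not said in the labels, and the p-values therefore cover only the spread among these libraries, which may be technical.

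Interferon alpha and beta bind a receptor made of IFNAR1 and IFNAR2, whose kinases JAK1 and TYK2 phosphorylate transcription factors such as STAT2. With IRF9 these form a complex, ISGF3, that binds the interferon-stimulated response element in the promoters of its target genes. The products block steps of viral replication, sense viral nucleic acid and tune the response itself. Epithelia and macrophages keep a low tonic level of the same genes without infection.

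Recovered fragments numbered between 24448312 and 34285323 per library. The biliary markers Krt19, Krt7, Epcam, Sox9 and Spp1 were present in every library, with Krt19 between 220 and 386 FPKM and Spp1 between 3941 and 5941 FPKM. The 8 biliary markers summed to between 4931 and 6213 FPKM in non-pregnant and between 6686 and 7172 FPKM in pregnant libraries. Of the 8, 0 passed the test in limma. At an unadjusted p under 0.05 in limma 2 were higher (7.09% of all tested genes). In 4 of the 8 the groups did not overlap, all higher (9.9% of all tested genes). The 8 had a median log2 change of 0.14. Markers of other cells were also found, at levels that differed between libraries. Kupffer cell and macrophage markers (12 genes) summed to between 57.3 and 90.8 FPKM in non-pregnant and between 110 and 183 FPKM in pregnant libraries. Of the 10 tested, 3 passed the test upward, Cd5l, C1qa and C1qc (limma adjusted p = 0.0357 for each). Of all tested genes 0.0613% were called higher. Csf1r and Cd68 of the same list stood at 19.1 FPKM or more in every library and overlapped between the groups. Sinusoidal endothelial markers (5 genes) summed to 138 FPKM in non-pregnant library 2 and to between 9.11 and 20.2 FPKM elsewhere. Hepatocyte markers (4 genes) summed to between 2343 and 2942 FPKM over all libraries, and nearly all of this was Alb and Ttr. Alb stood between 1973 and 2550 FPKM and Ttr between 264 and 388 FPKM. Apoa1 of the same list reached at most 8.03 FPKM and Serpina1a at most 1.73 FPKM, so the 4 markers differ widely in level. Stellate cell markers (4 genes) summed to between 10.4 and 12.2 FPKM in non-pregnant and between 7.47 and 9.61 FPKM in pregnant libraries. B cell markers (4 genes) summed to between 1.55 and 2.14 FPKM against between 2.60 and 2.97 FPKM, and T and NK cell markers (5 genes with a row) to between 0.0357 and 0.116 FPKM against between 0.358 and 0.798 FPKM. The sums of these 3 lists, like those of the biliary and macrophage lists, did not overlap between the groups. The part of these lists in the results below was not tested. Neutrophil markers (4 genes, of which Ly6g was at 0 in every library) summed to at most 0.603 FPKM. Plasmacytoid dendritic cell markers (5 genes) summed to 6.89 FPKM in non-pregnant library 1, where Ly6d alone stood at 6.76 FPKM, and to between 0.823 and 2.07 FPKM elsewhere; the other 4 genes of that list were under 1 FPKM in every library. In bulk RNA of this kind, fewer cells of a type and less RNA per cell cannot be told apart.

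Letters of the core of this response element were found in the promoters of many of these genes. The motif GAAANNGAAA was searched on both strands (TTTCNNTTTC on the other), with overlapping matches counted, in RefSeq windows of GRCm38.p6 that run from 250 bases before to 50 bases after a gene's start. It was found in 13 of the 28 interferon-stimulated genes that had a window (46.4%) and in 3.99% of all 27025 genes with one. Another 46 genes known as interferon-stimulated, outside the 38, carried it in 24 cases (52.2%). The 200 bases before the start are shown for genes on which the results below turn, and capitals mark the motif. Oasl2 has no match in its window, and each of the other genes shown has 2 or more.
Oas1a, chr5:120907526-120907725, minus strand: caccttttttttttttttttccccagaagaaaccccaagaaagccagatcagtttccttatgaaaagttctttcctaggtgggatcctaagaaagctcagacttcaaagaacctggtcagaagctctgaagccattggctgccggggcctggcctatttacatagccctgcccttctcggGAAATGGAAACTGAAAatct
Isg15, chr4:156200819-156201018, minus strand: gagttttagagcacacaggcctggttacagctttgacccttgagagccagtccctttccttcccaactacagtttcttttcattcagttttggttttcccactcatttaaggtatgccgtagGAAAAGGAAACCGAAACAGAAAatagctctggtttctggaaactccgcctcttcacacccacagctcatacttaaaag
Bst2, chr8:71537473-71537672, minus strand: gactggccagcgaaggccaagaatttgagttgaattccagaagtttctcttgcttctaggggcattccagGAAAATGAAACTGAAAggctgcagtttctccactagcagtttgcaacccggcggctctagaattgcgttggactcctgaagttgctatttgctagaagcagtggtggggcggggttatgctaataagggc
Ddx60, chr8:61927887-61928086, plus strand: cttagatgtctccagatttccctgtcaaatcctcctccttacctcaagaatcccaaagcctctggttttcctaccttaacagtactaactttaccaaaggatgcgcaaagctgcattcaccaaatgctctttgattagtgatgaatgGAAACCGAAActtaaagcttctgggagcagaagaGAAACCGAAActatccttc
Ifit1, chr19:34640689-34640888, plus strand: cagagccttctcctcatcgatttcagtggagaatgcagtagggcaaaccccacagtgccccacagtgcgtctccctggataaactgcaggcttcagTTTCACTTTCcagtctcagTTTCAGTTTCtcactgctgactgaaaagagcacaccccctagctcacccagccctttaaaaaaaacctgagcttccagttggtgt
Ifit3, chr19:34583329-34583528, plus strand: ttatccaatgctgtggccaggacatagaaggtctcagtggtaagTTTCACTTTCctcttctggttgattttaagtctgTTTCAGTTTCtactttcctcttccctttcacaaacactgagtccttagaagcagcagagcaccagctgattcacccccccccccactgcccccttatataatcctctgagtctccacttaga
Ifit3b, chr19:34607757-34607956, plus strand: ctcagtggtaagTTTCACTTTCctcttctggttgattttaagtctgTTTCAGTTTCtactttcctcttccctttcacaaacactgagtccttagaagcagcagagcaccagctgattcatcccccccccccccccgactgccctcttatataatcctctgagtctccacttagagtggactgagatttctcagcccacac
Oasl2, chr5:114896734-114896933, plus strand: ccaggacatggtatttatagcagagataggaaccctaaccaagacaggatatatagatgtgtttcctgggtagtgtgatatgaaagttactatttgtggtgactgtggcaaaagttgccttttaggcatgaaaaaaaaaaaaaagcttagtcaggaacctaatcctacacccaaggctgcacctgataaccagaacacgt
In Isg15 the 3 matches overlap and begin 78, 72 and 66 bases before the start. Oas1a and Bst2 each hold a pair of overlapping matches, which begin 20 and 14 bases before the start in Oas1a and 130 and 124 bases before it in Bst2. Ddx60 holds the same 10 letters, GAAACCGAAA, at 53 and 19 bases before the start. The 3 Ifit genes carry a TTTCACTTTC and a TTTCAGTTTC each. Ifit3 and Ifit3b are close copies also here: shifted by 32 bases, 138 of 168 compared bases are identical (82.1%, with no gaps allowed). The 11 tested genes with the motif had a median log2 change of 0.46, and the 14 tested genes with a window but no motif had 0.22, a difference that was not tested. A match describes letters in a window and does not show binding.

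**Figure D1:**
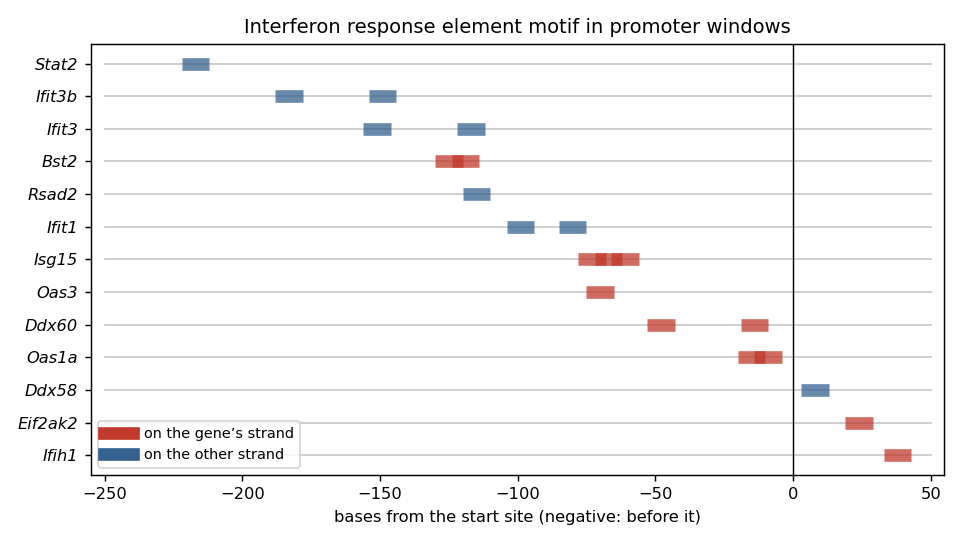
Position of the motif GAAANNGAAA (red) or its reverse complement (blue) in the promoter windows of the 13 interferon-stimulated genes that hold it; the horizontal axis gives bases from the start site and each grey line is a window of 250 bases before to 50 after it. Matches in Isg15, Oas1a, Bst2, Ddx60, Ifit1 and the Ifit3 pair come in groups of 2 or 3.

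Interferon-stimulated genes stood higher in pregnant than in non-pregnant libraries almost throughout, by small steps. Of the 32 tested, 31 had a log2 change above 0, where 44.8% of all tested genes did, and the median was 0.29 against -0.02 over all genes. The ratio of group means ran from 0.888 for Trim25 to 2.15 for Oas1a, with a median of 1.24, and 9 genes were over 1.5-fold. In 21 of the 32 all 3 pregnant values lay above all 3 non-pregnant values, as in 9.9% of all tested genes, and in none did they all lie below (12.2% of all genes). No single gene passed the test. None of the 32 had a limma adjusted p under 0.05 (values from 0.215 for Oas1a to 0.662 for Eif2ak2), where 0.0613% of all tested genes were called higher and 0.0263% lower. At an unadjusted p under 0.05 there were 19 of the 32, all higher, beside 7.09% of all genes higher and 6.3% lower. limma-voom on the recovered fragments also called 0 of 31 (Isg15 had no whole fragment numbers), with 21 higher at an unadjusted p under 0.05, as were 8.08% of all genes in that fit (4.98% lower).

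The calls depended on the non-pregnant libraries. Without non-pregnant library 2, limma called 4 interferon-stimulated genes higher, Bst2, Rtp4, Ifit3 and Oas1a (adjusted p from 0.0238 to 0.0409), along with 0.797% of all genes. With limma's array weights, which gave non-pregnant libraries 1, 2 and 3 weights of 3.68, 0.411 and 0.205, it called 17 of the 32 higher, along with 6.31% of all genes.

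**Figure D2:**
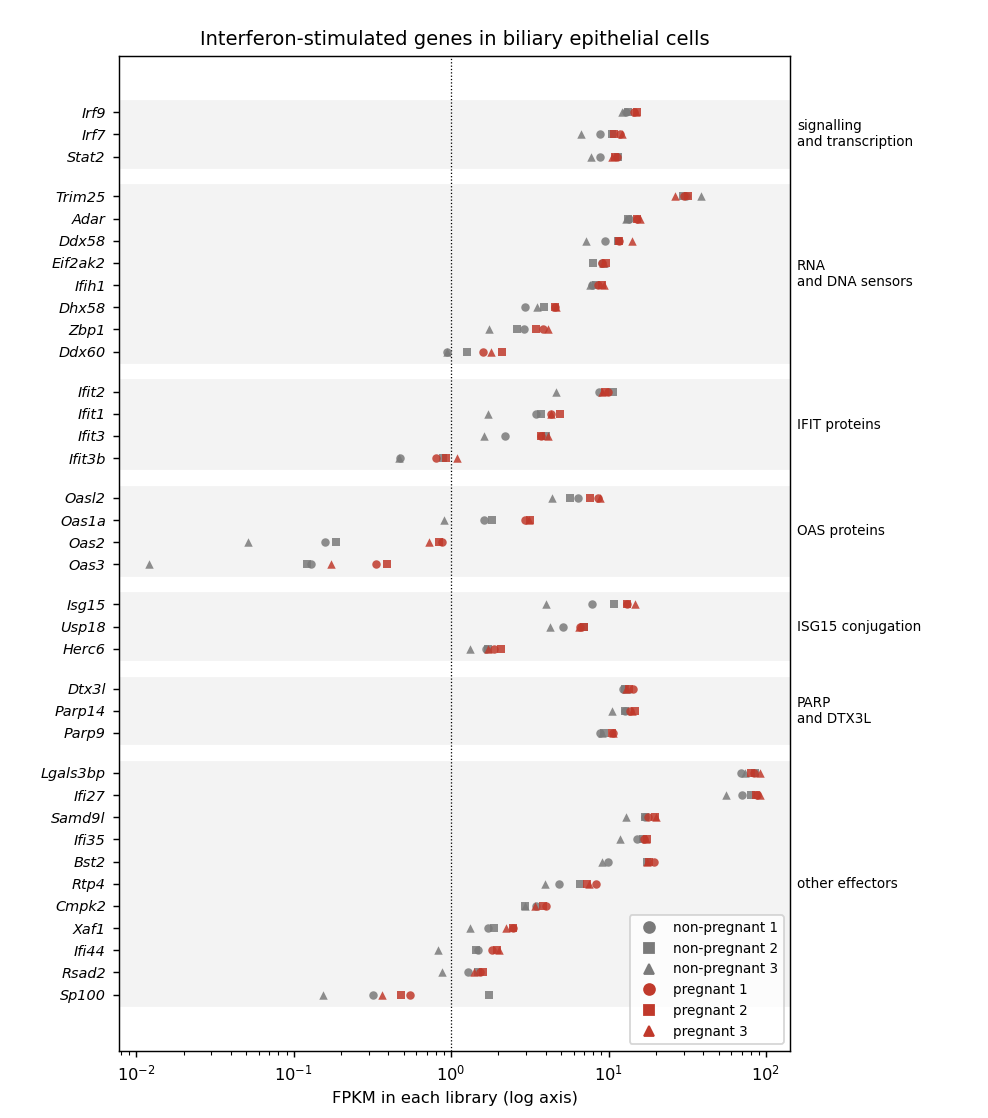
FPKM (log axis) of the 36 interferon-stimulated genes with a row, one point per library, grey for non-pregnant and red for pregnant, shapes for libraries 1 to 3 of each group, ordered by role and level. The dotted line marks 1 FPKM; non-pregnant library 3 is the leftmost point for most genes, and the red points of a gene lie close together.

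The oligoadenylate synthetases sense double-stranded RNA and switch on the nuclease RNase L. Of these, Oas2, Oas3 and Oas1a held the largest relative differences of the set. Oas1a (chromosome 5, 120896256 to 120907521, mm10) stood at 1.61, 1.81 and 0.904 FPKM without pregnancy, against 2.97, 3.19 and 3.12 FPKM with it. The group means were 1.44 ± 0.475 and 3.10 ± 0.116 FPKM (SD, n = 3 each). The groups did not overlap, the pregnant values lay close together, and limma gave a log2 change of 0.77 (SE 0.148, adjusted p = 0.215). Oas1a lies in a family of near-identical genes, and how fragments shared among such copies were counted was not stated in the sources used. Its close copy Oas1g, from the list of other interferon-stimulated genes, was at 0.955, 1.20 and 0.498 against 1.44, 1.63 and 1.45 FPKM. Oasl2, a related synthetase-like gene, was at 6.40, 5.66 and 4.37 against 8.56, 7.63 and 8.86 FPKM (limma log2 change 0.54, SE 0.125, adjusted p = 0.279). Oas2 and Oas3, which make the larger synthetases, had means under 1 FPKM and so were not tested with the others. Oas2 lies beside Oas3 on chromosome 5, from 120730333 to 120749853. Its fragments numbered 20, 25 and 8 without pregnancy against 104, 116 and 82 with it, or 0.157, 0.186 and 0.0510 against 0.877, 0.843 and 0.728 FPKM. Every pregnant library lay far above every non-pregnant one, with a pooled ratio of 6.47 (95% exact Clopper-Pearson interval from 4.82 to 8.84, counting error only). With no filter on low values, limma gave Oas2 a log2 change of 0.68 (SE 0.0594, adjusted p = 0.108), on a scale that compresses genes this low. Its neighbour Oas3 had 26, 26 and 3 fragments against 63, 85 and 31, a pooled ratio of 3.70 (interval from 2.72 to 5.10). Macrophage markers also differed between the same groups, and in pregnant libraries 1, 2 and 3 the marker Cd5l stood at 20.1, 14.7 and 9.29 FPKM; their part in the Oas2 and Oas3 values was not tested.

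The ISG15 system attaches a ubiquitin-like protein to others during the response. Isg15 itself (chromosome 4, 156199424 to 156200818) stood at 7.85, 10.9 and 3.999 FPKM without pregnancy, against 13.2, 13.03 and 14.8 FPKM with it. This was the largest fitted change among the 32 tested genes (limma log2 change 0.86, SE 0.275, adjusted p = 0.301). The groups did not overlap, and most of the spread lay within the non-pregnant group. Usp18, the protease that removes ISG15 and dampens receptor signalling, was at 5.11, 6.96 and 4.22 against 6.63, 7.03 and 6.51 FPKM. Herc6, the ligase that joins ISG15 to its targets in mice, was at 1.66, 1.72 and 1.32 against 1.87, 2.08 and 1.71 FPKM. For both genes the groups overlapped, with non-pregnant library 2 inside the pregnant range.

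The Ifit genes encode proteins that bind foreign RNA ends and block its translation, and lie side by side on chromosome 19. Ifit1 stood at 3.44, 3.74 and 1.72 FPKM against 4.31, 4.90 and 4.28 FPKM (limma log2 change 0.51, SE 0.199, adjusted p = 0.352), with no overlap between the groups. Ifit3 was at 2.20, 4.02 and 1.61 against 3.70, 3.71 and 4.12 FPKM, and its close copy Ifit3b at 0.471, 0.893 and 0.469 against 0.807, 0.922 and 1.09 FPKM. In both, non-pregnant library 2 was inside the pregnant range and the other non-pregnant libraries lay below it. Since the pair share sequence, how their fragments were split is uncertain. Ifit2 was at 8.73, 10.7 and 4.66 against 9.90, 9.49 and 9.14 FPKM, with non-pregnant library 2 the highest and non-pregnant library 3 the lowest of the 6. Its limma log2 change of 0.28 (SE 0.236, adjusted p = 0.581) became -0.02 without non-pregnant library 3.

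Among the sensors of nucleic acid, 7 of the 8 tested genes were above 0 (44.8% of all tested genes). In 6 the groups did not overlap, all higher (9.9% of all tested genes). Ddx58, which encodes the RNA sensor RIG-I, stood at 9.49, 11.5 and 7.21 FPKM without pregnancy, against 11.7, 11.7 and 14.03 FPKM with it. Ifih1, which encodes the sensor MDA5, was at 7.85, 8.35 and 7.66 against 8.63, 9.04 and 9.41 FPKM, a small step with little spread (limma log2 change 0.16, SE 0.0725, adjusted p = 0.381). Dhx58, which encodes their regulator LGP2, was at 2.93, 3.88 and 3.49 against 4.56, 4.56 and 4.65 FPKM. All 3 of these sensor genes were higher in every pregnant library than in any non-pregnant one. Zbp1, a sensor of Z-form nucleic acid that triggers cell death, was at 2.92, 2.62 and 1.74 against 3.86, 3.47 and 4.15 FPKM (limma log2 change 0.51, SE 0.142, adjusted p = 0.295). Ddx60, a helicase of the antiviral response, was at 0.937, 1.27 and 0.945 against 1.59, 2.09 and 1.79 FPKM (limma log2 change 0.46, SE 0.116, adjusted p = 0.290). Adar, which edits double-stranded RNA and so keeps MDA5 silent, was at 13.4, 13.4 and 12.9 against 15.2, 15.2 and 15.8 FPKM. Adar overlaps Chrnb2 on the opposite strand over 7252 bases of annotated gene span, and whether counting used strand was not stated in the sources used. For the remaining sensor genes the groups overlapped. Eif2ak2, which encodes the kinase PKR, was at 9.09, 7.96 and 9.37 against 9.13, 9.65 and 9.21 FPKM. Trim25, the ubiquitin ligase that activates RIG-I, was the one tested gene of the 32 below 0, at 30.9, 29.9 and 38.8 against 30.1, 31.8 and 26.5 FPKM (limma log2 change -0.16, SE 0.117, adjusted p = 0.531).

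**Figure D3:**
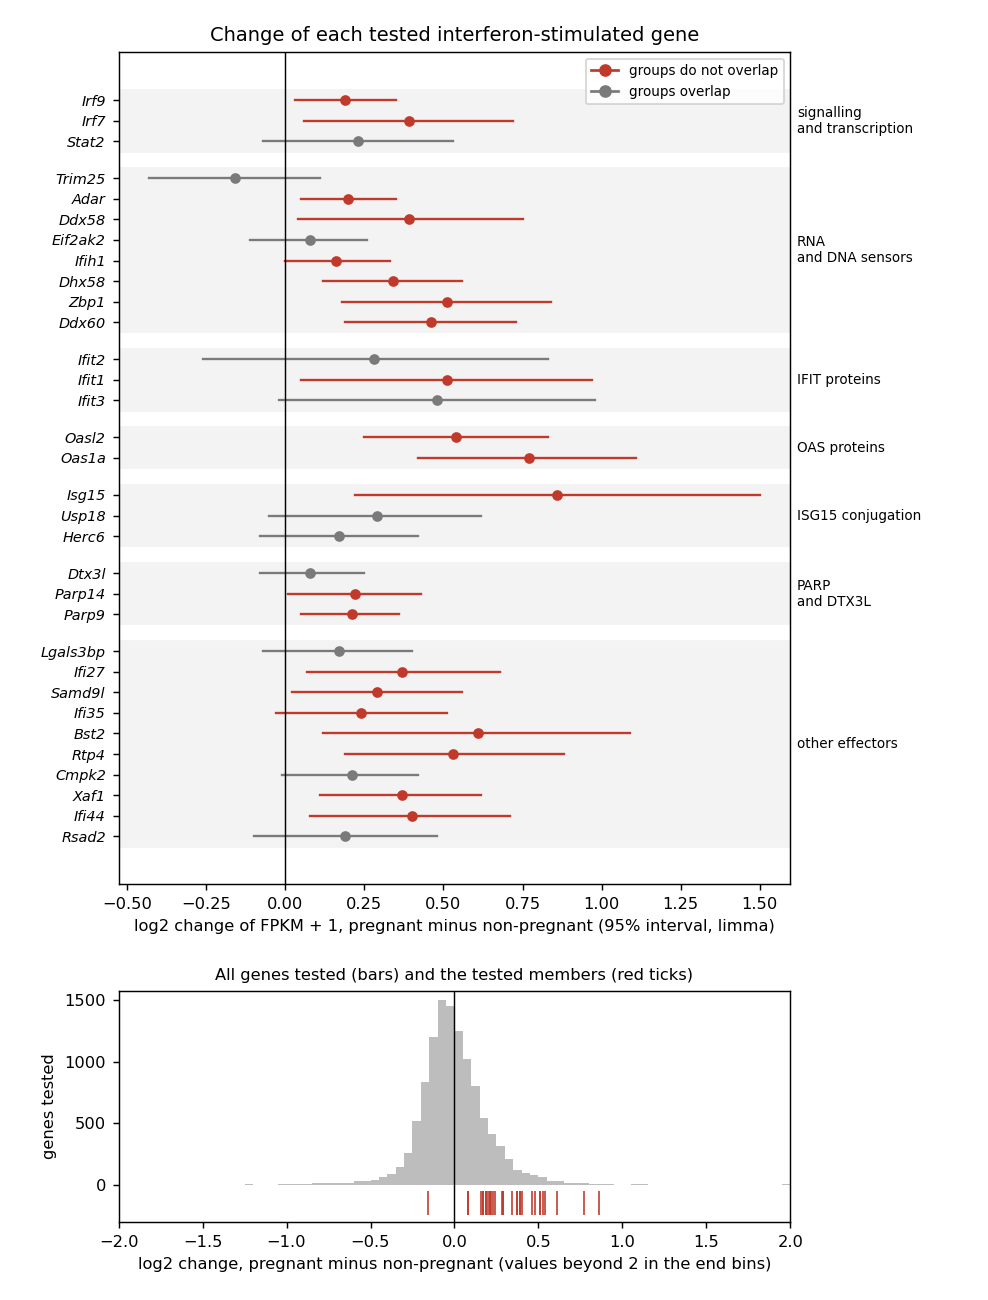
Upper panel: log2 change of FPKM + 1 (pregnant minus non-pregnant) with its 95% interval from limma for the 32 tested interferon-stimulated genes by role, red where the groups did not overlap. Lower panel: number of genes by log2 change for all 11412 genes tested, with the 32 as red ticks; 31 of the 32 lie to the right of 0.

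The 3 transcription factors of the set had a median log2 change of 0.23. In 2 of them the groups did not overlap, both higher (9.9% of all tested genes). Irf7, the factor that amplifies interferon production, stood at 8.88, 10.6 and 6.71 FPKM against 11.8, 10.8 and 12.1 FPKM (limma log2 change 0.39, SE 0.142, adjusted p = 0.330). Irf9, the DNA-binding part of ISGF3, was at 13.0, 13.4 and 12.3 against 14.4, 15.1 and 14.9 FPKM. Stat2 was at 8.77, 11.5 and 7.71 against 11.3, 11.03 and 10.6 FPKM, with non-pregnant library 2 the highest of the 6. Parp9 and its partner Dtx3l, which together modify histones, start beside each other on opposite strands of chromosome 16 and overlap by 682 bases. Irf9 overlaps Rnf31 by 123 bases and Irf7 overlaps Phrf1 by 45 bases, and fragments there are of uncertain origin. Dhx58, Eif2ak2, Oas2, Usp18, Ifi35, Herc6, Parp9, Parp14, Rtp4 and Sp100 overlap annotated antisense, non-coding or pseudogenes, with the same limit. Parp9 was at 8.81, 9.40 and 9.04 against 10.7, 10.6 and 10.6 FPKM, with no overlap between the groups (limma log2 change 0.21, SE 0.0662, adjusted p = 0.301). Dtx3l was at 12.3, 12.8 and 13.1 against 14.2, 13.5 and 12.9 FPKM, and its groups overlapped. Parp14, a mono-ADP-ribosyltransferase, was at 12.7, 12.8 and 10.5 against 13.6, 14.7 and 14 FPKM.

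Of the other effectors, 10 of 11 were tested, and all 10 lay above 0 (44.8% of all tested genes). In 7 the groups did not overlap, all higher (9.9% of all tested genes). The most abundant of the whole set were Lgals3bp, a secreted glycoprotein, and Ifi27, a small membrane protein. Lgals3bp was at 69.4, 85.4 and 73.9 against 84.4, 80.8 and 91.6 FPKM and overlapped, while Ifi27 was at 71.0, 80.1 and 55.5 against 87.2, 86.7 and 91.5 FPKM and did not. Bst2, which encodes tetherin and holds budding virions at the cell surface, stood at 9.86, 17.5 and 9.15 FPKM without pregnancy, against 19.4, 17.96 and 17.6 FPKM with it (limma log2 change 0.61, SE 0.209, adjusted p = 0.319). Non-pregnant library 2 lay just below the pregnant range, and without it the log2 change was 0.88. Rtp4, a chaperone of membrane receptors, was at 4.82, 6.55 and 3.95 against 8.28, 7.34 and 7.51 FPKM (limma log2 change 0.53, SE 0.148, adjusted p = 0.295). It overlaps Masp1 on the opposite strand over 525 bases, and the processed transcript Gm45338 on its own strand over 39791 bases of annotated gene span. Xaf1, a proapoptotic protein, was at 1.73, 1.87 and 1.31 against 2.47, 2.46 and 2.22 FPKM. Ifi44 was at 1.48, 1.44 and 0.820 against 1.83, 1.94 and 2.02 FPKM. In both, every pregnant library lay above every non-pregnant one. Samd9l, a restriction factor, was at 17.1, 16.99 and 12.9 against 17.9, 19.7 and 20.1 FPKM. Ifi35 was at 15.3, 16.6 and 11.8 against 16.7, 17.6 and 17.3 FPKM. Their groups did not overlap either, by a small margin. Cmpk2 and Rsad2, neighbours on chromosome 12 that together supply and make an antiviral nucleotide, overlapped between the groups. Cmpk2 was at 3.44, 2.96 and 2.93 against 4.004, 3.82 and 3.42 FPKM. Rsad2, which encodes viperin, was at 1.27, 1.49 and 0.871 against 1.52, 1.61 and 1.40 FPKM.

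Sp100, a component of nuclear bodies, had its highest value by far in a non-pregnant library. Its fragments numbered 69, 396 and 41 without pregnancy against 111, 112 and 70 with it, or 0.319, 1.73 and 0.154 against 0.552, 0.480 and 0.366 FPKM. With a mean of 0.601 FPKM it was not tested with the others. The library in which it was high, non-pregnant library 2, was also the one with high endothelial markers, with Stab2, a scavenger receptor of sinusoidal endothelium, at 46.8 FPKM there and at 5.98 FPKM or less in every other library. The part of endothelial RNA in the Sp100 value was not tested. The members nearest the limit of 1 FPKM were Ifit3b, at a mean of 0.775 FPKM below it, and Rsad2, at 1.36 FPKM above it.

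Within the pregnant group the spread of the set was small, and the difference between groups rested partly on 1 library. The median coefficient of variation of the 32 genes was 5.44% among pregnant and 18.03% among non-pregnant libraries, where all tested genes had 6.21% and 11.2%. Non-pregnant library 3 was the lowest of the 6 libraries for 25 of the 32, as it was for 28.5% of all tested genes. Relative to each gene's non-pregnant mean, the median level of the 32 was 1.03, 1.14 and 0.810 without pregnancy, against 1.25, 1.26 and 1.24 with it. Without non-pregnant library 3 the median log2 change was 0.20, with 30 of 32 above 0 and 15 higher at an unadjusted p under 0.05, as were 6.26% of all genes (6.18% lower). All 3 pregnant values then lay above both remaining non-pregnant values in 23 of the 32, as in 14.02% of all tested genes. The genes called by limma without it numbered 0 of 32, and 0 of all genes.

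Macrophage markers differed between the groups and also within them. Their median level relative to the non-pregnant mean was 16.2, 11.6 and 5.15 in pregnant libraries 1, 2 and 3, and the median ratio of pregnant library 3 to pregnant library 1 was 0.364 over the 10 tested markers. Over the 32 interferon-stimulated genes that ratio had a median of 1.03 (range from 0.853 to 1.20). The median ratio of non-pregnant library 3 to non-pregnant library 1 was 0.322 over the markers and 0.807 over the 32 genes. Of the macrophage markers 9 of 10 were highest in pregnant library 1 and lowest in pregnant library 3 among the pregnant libraries, as were 6 of the 32 genes (18.8%) and 20.4% of all tested genes. Of the genes of the set with a mean under 1 FPKM, Oas2 and Sp100 had that order and Oas3 and Ifit3b did not. The part of macrophage RNA in the levels of the set was not tested.

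**Figure D4:**
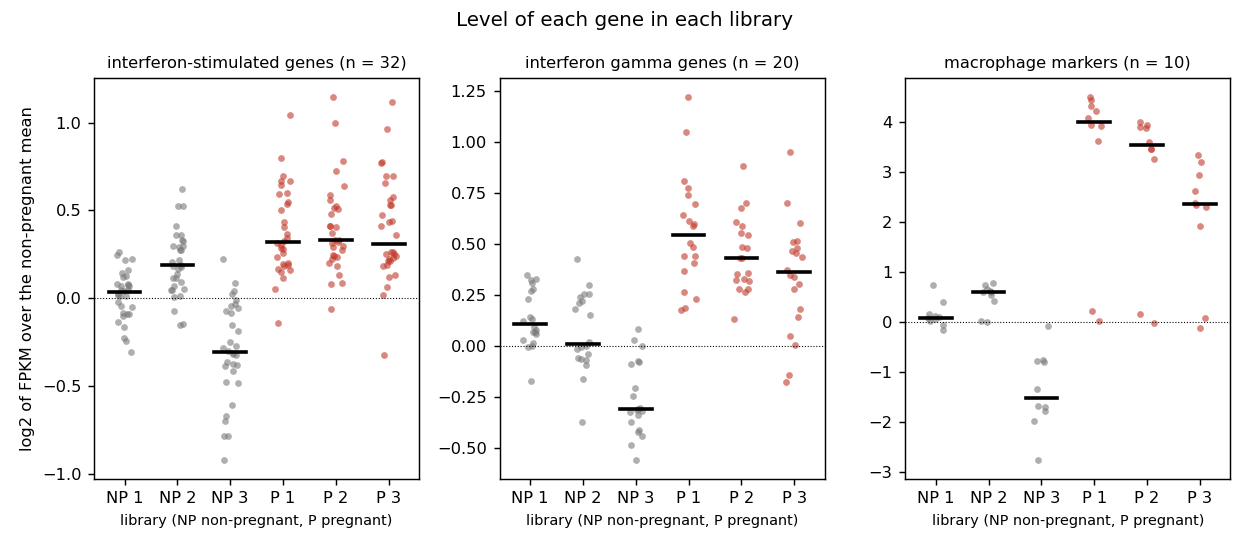
Log2 of each gene's FPKM in a library over its mean in the non-pregnant libraries, for the 32 tested interferon-stimulated genes, 20 genes best known from interferon gamma and 10 macrophage markers; each point is a gene, black bars are medians, and the vertical scales differ between panels. The 32 genes have medians at like heights in the 3 pregnant libraries and are lowest in non-pregnant library 3, while the macrophage markers are highest in pregnant library 1.

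Upstream of these genes, transcripts of the interferons themselves were close to undetectable in these libraries. Of 21 interferon ligand genes 10 had 0 fragments in every library, Ifnb1, which encodes interferon beta, among them; 0 fragments allow (as 3 fragments) up to between 0.114 and 0.158 FPKM of Ifnb1, depending on the library. Ifnab was the ligand gene with the highest value, with 2, 7 and 7 fragments without pregnancy against 14, 9 and 2 with it. No other ligand gene had more than 5 fragments in a library. How any fragments shared among the Ifna genes were counted was not stated in the sources used, so their values may be too low. Interferon made by cells outside these libraries was not measured. The receptors were present throughout and 0 of 6 passed the test in limma, beside 0.0613% of all tested genes higher and 0.0263% lower. At an unadjusted p under 0.05 in limma there were also 0, beside 7.09% of all tested genes higher and 6.3% lower. Ifnar1 was at 18.6, 18.9 and 20.7 against 17.8, 17.5 and 16.5 FPKM and Ifnar2 at 9.72, 11.6 and 11.3 against 10.95, 10.8 and 11.1 FPKM. Ifnlr1, the epithelial receptor for interferon lambda, was at 11.8, 11.7 and 11.99 against 11.04, 11.4 and 9.26 FPKM. For Ifnar1 and Ifnlr1, 2 of the 6, all pregnant values lay below all non-pregnant ones, by little, as in 12.2% of all tested genes.

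The 7 signal transducers tested had a median log2 change of -0.11. The kinase genes Jak1 (29.7, 41.4 and 31.8 against 27.4, 27.2 and 29.99 FPKM) and Jak2 (16.1, 13.9 and 18.7 against 11.96, 13.4 and 12.1 FPKM) had lower means in pregnancy. Stat3 was at 19.6, 17.2 and 18.8 against 15.6, 16.5 and 16.3 FPKM. Irf1, the early factor of the interferon gamma response, was at 74.2, 74.1 and 46.3 against 59.8, 59.2 and 57.1 FPKM, inside the spread of the non-pregnant libraries. Of the 7, 0 passed the test (limma). At an unadjusted p under 0.05, 1 was higher and 2, Jak2 and Stat3, were lower, beside 7.09% of all tested genes higher and 6.3% lower. In each of the genes past that threshold the groups did not overlap, as in 9.9% of all tested genes upward and 12.2% downward.

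Genes that sense nucleic acid and induce interferon had a median log2 change of 0.05 over 11 tested, and 0 passed (limma). At an unadjusted p under 0.05 in limma, 1, Irf5, was higher (7.09% of all tested genes). Tbk1, the kinase that activates IRF3, was at 12.8, 12.4 and 14.9 against 11.1, 11.3 and 12.01 FPKM, and Irf5 at 2.10, 2.54 and 1.92 against 3.53, 2.94 and 2.49 FPKM. Among 8 tested inhibitors of signalling the median was 0.04 and 0 passed. Socs3, a feedback inhibitor of cytokine receptors, was at 70.1, 70.9 and 66.1 against 56.5, 54.3 and 54.1 FPKM (limma log2 change -0.32, SE 0.0721, adjusted p = 0.268). Socs1, which inhibits the interferon receptors' kinases, was at 7.85, 9.27 and 6.87 against 8.99, 8.51 and 11.3 FPKM, and overlapped.

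Interferon targets outside the set also leaned upward. Of 37 tested genes known as interferon-stimulated, 31 were above 0 (44.8% of all tested genes), with a median of 0.17. In 13 the groups did not overlap, all higher, as in 9.9% of all tested genes. None passed the test (limma), and 9 did at an unadjusted p under 0.05, all higher, as were 7.09% of all tested genes. Ube2l6, which encodes the conjugating enzyme of ISG15, was at 4.29, 5.72 and 3.91 against 6.62, 7.36 and 6.91 FPKM. Mlkl, the executor of necroptosis downstream of ZBP1, was at 1.53, 1.90 and 1.22 against 2.69, 2.54 and 2.92 FPKM. Epsti1 was at 2.05, 2.10 and 1.73 against 2.62, 3.51 and 4.10 FPKM. Genes best known from interferon gamma were above 0 in 20 of 20 tested, with a median of 0.37. In 13 of them the groups did not overlap, all higher (9.9% of all tested genes). At an unadjusted p under 0.05 (limma), 12 were higher (7.09% of all tested genes), and 0 passed the test. Ifi47, an immunity-related GTPase, was at 5.22, 5.92 and 4.52 against 8.93, 8.49 and 7.44 FPKM (limma log2 change 0.58, SE 0.107, adjusted p = 0.199). Gbp2, a guanylate-binding protein gene, was at 4.82, 4.403 and 2.69 against 8.21, 5.83 and 7.66 FPKM, and the proteasome subunit gene Psmb10 at 13.1, 15.2 and 10.3 against 19.4, 17.96 and 17.8 FPKM. The pattern of the macrophage markers, highest in pregnant library 1 and lowest in 3, was found in 11 of these 20 genes (55%) and in 20.4% of all tested genes. The median ratio of pregnant library 3 to 1 over the 20 genes was 0.854. The part of macrophage RNA in these values was not tested. Without non-pregnant library 2, limma called 5 of the 88 genes of the pathway lists, all higher, along with 0.797% of all genes. With array weights it called 21 higher, along with 6.31% of all genes, and 3 lower, along with 581 of the 11412 genes tested.

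**Figure D5:**
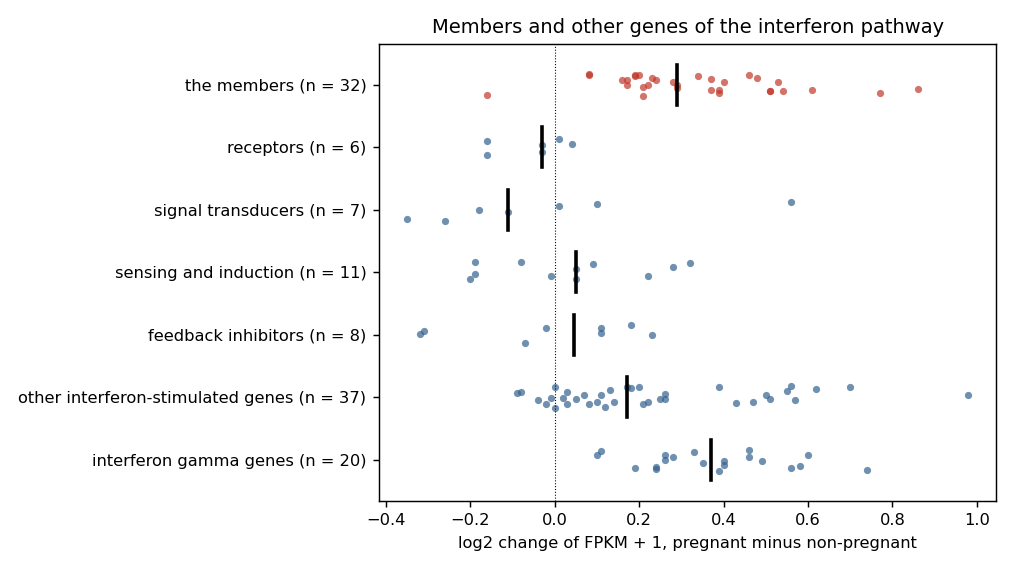
Log2 change of FPKM + 1 (pregnant minus non-pregnant) of each tested gene of the set (red) and of 6 other lists of the interferon pathway (blue); black bars are medians. Medians of receptors, transducers, sensing genes and inhibitors lie between -0.11 and 0.05, that of the 32 genes at 0.29.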

How the data were processed

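RNA-seq was analysed in 6 libraries of sorted biliary epithelial cells. Per the labels' protocols, libraries were made with a KAPA RNA HyperPrep kit after ribosomal RNA was removed. Build mm10 and the tools STAR 2.7.9a, cutadapt 3.4, DESeq2 1.30.1 and HTSeq 0.13.5 are listed, per the submitters' processing notes, with no roles. The authors deposited FPKM values, 1 column per library, for 21700 genes. Median-ratio size factors of these values were the same in all libraries (1.00005), so scaling by them changed nothing, and scaling to the total of recovered fragments was added after seeing the data. FPKM times the union exon length in GENCODE vM21 (same build; 105 genes had no length) was a whole multiple of 1 step per library for 98.5% of values, within a tolerance of 0.01, and was taken as fragments.

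Groups and numbers came from the titles; a description numbers non-pregnant library 3 as 4. Values were tested as log2(FPKM + 1), which understates changes of low genes, where a gene's mean reached 1 FPKM, in R 4.3.3 with limma 3.58.1 (empirical Bayes with a trend), two-sided, with Benjamini-Hochberg adjustment over all genes tested and a threshold of 0.05. The fit was tested on simulated data whose changes were larger than those of nearly all tested genes of the set. That run does not show whether steps this small can be found. Alternatives were another pseudocount, no filter, other scalings, a replicate block, robust and weighted fits, limma-voom on fragments and leaving out each library. Promoter windows were RefSeq's. The text names every gene of the set and, in other lists, genes from among the 4 with the smallest p, not all of which are named, plus fixed genes. Oas1g, Oas1c, Oasl1, Ifnlr1, Ifnab, Ifnb1, Stab2, Ly6d, Ly6g, Csf1r and Cd68 were chosen after their values were seen. 1 gene of the pathway lists is not reported here by name. The genes and lists were chosen with earlier results of these data known. Figures were made with Python 3.11.15 and matplotlib 3.10.9.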

Additional observations from a re-analysis of the deposited data

How the results depend on the processing

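The direction of the median of the interferon-stimulated genes held in every setting run, with a median log2 change between 0.20 and 0.42, and the calls did not. Genes whose groups did not overlap numbered 21 in the fit reported (9.9% of all genes) and up to 28 without non-pregnant replicate 2 (19.4% of all genes). Of 479 refits of single genes, 457 kept direction and side of the threshold, 21 newly passed it, and Ifit2 turned to -0.02 without non-pregnant replicate 3 (range from -0.02 to 0.50 with single libraries left out). Genes of the set called higher numbered 17 with array weights and between 0 and 4 when single libraries were left out, and 0 in all other settings; other pathway genes called higher numbered 21 and between 0 and 5, and called lower 3 with array weights. Over all genes, 0 were called higher and 0 lower with no filter on low values, 2 higher with robust empirical Bayes, 720 higher and 581 lower with array weights, 1 higher and 0 lower with limma-voom on recovered fragments, and between 0 and 91 higher and between 0 and 42 lower with a library left out (7 and 3 in the fit reported). With array weights the non-pregnant mean rests mainly on library 1. The cause of these differences was not tested. The replicate block gave 13 higher and 0 lower over all genes and 0 of the set. Same-numbered libraries had correlations of 0.068, 0.019 and -0.138 between their deviations from the group mean. Differently numbered ones had correlations between -0.152 and 0.103. Deviations within a group of 3 sum to 0, so these values cannot decide whether the numbers pair libraries. Depth limits Oas2, Oas3, Ifit3b and the ligand genes, whose values rest on few fragments.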
